A study of Mus musculus with 2 samples.

Results

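The genes described here encode the proteasome, the protease complex that degrades ubiquitin-tagged proteins, with its activators, its inhibitor and its assembly chaperones. They were chosen by symbol, as every gene whose name begins with Psm, one of the letters a to g and a digit, and that had at least 20 unique molecular identifiers (UMIs, tags that mark single RNA molecules) over both deposited matrices. Of 50 symbols that matched, 49 passed, out of 10989 identifiers of all genes at that minimum and 27998 identifiers in all. Psmb11, the catalytic subunit known from the thymus, had 0 UMIs and is named only. The next lowest was Psme2b with 368 UMIs over both matrices, so the minimum split no close values. By role the 49 genes comprised 3 immunoproteasome subunits, 3 constitutive partners that these replace, 7 alpha and 4 other beta subunits of the 20S core, 6 ATPases and 11 non-ATPases of the 19S particle, 6 activators and inhibitors and 7 assembly chaperones. Psma8 is known as an alpha subunit of the testis, and Psmc3ip matched by name only, since it encodes a meiotic recombination factor and no subunit.

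The 20S core is a barrel of alpha rings, which gate the entry, and beta rings, 3 of whose subunits on each ring hold the proteolytic sites. The 19S particle caps the barrel, binds ubiquitin chains, removes them and unfolds the substrate with a ring of ATPases. In leukocytes and under interferon, newly built cores can take up Psmb8, Psmb9 and Psmb10 in place of Psmb5, Psmb6 and Psmb7, which changes the peptides that are produced for presentation on major histocompatibility complex (MHC) class I molecules.

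The libraries were 1 Jumonji library, from mouse MLL-AF9 leukaemia cells with Cas9 and a guide RNA against the Jumonji domain of JMJD1C, and 1 Renilla library, from the same kind of cells with a control guide against Renilla luciferase, which the mouse genome lacks. MLL-AF9 is a fusion oncoprotein of acute myeloid leukaemia, and JMJD1C belongs to the JmjC proteins, many of which remove methyl groups from histones. Both cultures were grown in RPMI with serum and 10 ng/ml mouse interleukin-3, and were profiled with droplet 3′ single-cell RNA sequencing. The labels do not say how many guides or clones each culture held, nor how long after the guide the cells were taken, so the guide cannot be told apart from the culture and the library preparation.

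After barcodes with more than 10% mitochondrial UMIs were left out, the Jumonji library held 575 of 652 barcodes with 12809661 UMIs (median 22123 per cell) and the Renilla library 608 of 651 with 14418743 UMIs (median 23528). No barcode was shared by both. Jmjd1c had 112 CPM (the UMI count scaled to a library total of 1000000) in the Jumonji library and 140 CPM in the Renilla library. Tags at the 3′ end say nothing of a cut elsewhere in the gene. The 5 markers of leukaemic progenitors (Hoxa9, Meis1, Kit, Myb and Cd34) were all detected and summed to 1025 CPM in the Jumonji library and 865 CPM in the Renilla library. Primary granule genes summed to 1808 CPM in the Jumonji library and 5221 CPM in the Renilla library. Neutrophil markers (8 of 9 with UMIs, Ltf at 0) summed to 935 CPM in Jumonji and 151 CPM in Renilla, and monocyte and macrophage markers to 579 CPM in Jumonji and 102 CPM in Renilla, with C1qa at 0 in both. Ms4a1, Cd3d and Cd3e, which define B and T cells, were at 0 in both libraries, but some other lymphoid markers were not. B cell markers summed to 11 UMIs in the Jumonji library and 27 UMIs in the Renilla library. T and natural killer cell markers summed to 27.9 CPM in the Jumonji library and 27.3 CPM in the Renilla library. In each library 1 of these 4 genes had 3 UMIs or more.

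Windows of 300 bases from 250 bases before the start in RefSeq to 50 bases after it were available for 42 of the 50 symbols (RefSeq, GRCm38.p6). Those of Psmb9 and Psmb8, the immunoproteasome genes that differed most between the libraries and in opposite directions, are printed with that of Psmb5, the constitutive partner of Psmb8. They run 5′ to 3′ on the gene's own strand. Capitals mark a GC box (GGGCGG) and a CCAAT box on the reverse strand in Psmb9, a gamma-activated site (TTCNNNGAA), a motif known from interferon responses, in Psmb8, and the core of an antioxidant response element (TGACNNNGC), a motif known to be bound by NRF1 and NRF2, in Psmb5.
Psmb9, chr17:34187281-34187580, minus strand: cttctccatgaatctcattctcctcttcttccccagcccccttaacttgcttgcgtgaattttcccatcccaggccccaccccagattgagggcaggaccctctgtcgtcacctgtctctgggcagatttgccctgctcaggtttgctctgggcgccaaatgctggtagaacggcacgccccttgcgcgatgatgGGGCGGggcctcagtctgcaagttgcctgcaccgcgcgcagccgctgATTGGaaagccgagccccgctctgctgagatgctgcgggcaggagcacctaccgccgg
Psmb8, chr17:34197945-34198244, plus strand: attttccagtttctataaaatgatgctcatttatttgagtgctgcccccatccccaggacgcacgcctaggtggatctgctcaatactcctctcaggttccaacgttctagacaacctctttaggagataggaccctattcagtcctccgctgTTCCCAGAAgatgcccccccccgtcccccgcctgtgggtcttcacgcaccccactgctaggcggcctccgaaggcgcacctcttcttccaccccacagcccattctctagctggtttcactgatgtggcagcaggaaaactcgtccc
Psmb5, chr14:54617946-54618245, minus strand: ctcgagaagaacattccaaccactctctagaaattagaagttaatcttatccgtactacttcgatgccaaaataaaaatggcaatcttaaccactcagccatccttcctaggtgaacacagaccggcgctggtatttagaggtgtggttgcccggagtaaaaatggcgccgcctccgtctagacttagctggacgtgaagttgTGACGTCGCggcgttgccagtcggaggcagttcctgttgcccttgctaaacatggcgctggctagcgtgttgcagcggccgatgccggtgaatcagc

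The Psmb9 window shared 275 of its bases with the window of Tap1, the peptide transporter gene that starts on the opposite strand. In GENCODE M21, on the same build (mm10, GRCm38), Psmb9 spans chromosome 17 from 34181987 to 34187764 and Tap1 from 34187553 to 34197225, so that their 5′ ends overlap by 212 bases. Psmb8 lies beyond Tap1, from 34197721 to 34201454. The GENCODE spans of Psmb8 and Psmb9 begin upstream of the RefSeq starts used here, so both printed windows lie inside them. All 3 sit in the MHC region. Motifs were searched on both strands of all 32851 windows of that length. The gamma-activated site was found in 8.3% of all windows and in those of Psmb8, Psmd2 and Psmg1. The antioxidant response element core was found in 12.4% of all windows and in those of Psmb5, Psmb6, Psmc6, Psmd12, Psmd9 and Psme4. The interferon-stimulated response element (GAAA, any 2 bases, then GAAA) was found in 3.44% of all windows and in those of Psmb3, Psmd4, Psmd9, Psme1 and Psmg4, but in none of the immunoproteasome windows. CCAAT was found in 37.4% and GGGCGG in 35.7% of all windows, against 15 and 23 of the 42 proteasome windows. A match describes these letters and no binding.

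As a whole, proteasome transcripts took up a similar part of both libraries, at 7736 CPM in the Jumonji library and 8181 CPM in the Renilla library, and 36 of 49 genes lay within 1.2-fold. The exceptions were single genes, with Psmb9 as the one immunoproteasome gene that was higher in the Jumonji library and assembly chaperones among the lowest ratios. With 1 library per condition there was no replicate check and no test. Each log2 ratio of CPM is given, Jumonji over Renilla, with an exact 95% interval that covers counting error only. A gene was counted as higher or lower when it had at least 100 UMIs over both libraries, as all 49 did, and differed by at least 1.5-fold.

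By that size 1 proteasome gene was higher in the Jumonji library, where 9.91% of the 8959 genes compared were, and 2 were lower, where 7.89% of those genes were. At 2-fold 0 proteasome genes were higher and 0 lower, where 4.65% and 1.48% of those genes were. The median log2 ratio was -0.09 over the 49 genes and -0.06 over all genes compared. In all, 15 genes had ratios above 0 and 34 below, and the counting interval lay above 0 for 7, below 0 for 24 and across 0 for 18.

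The immunoproteasome subunits did not differ as a block. Psmb9, which replaces the caspase-like subunit, had 620 UMIs (48.4 CPM) in the Jumonji library and 430 UMIs (29.8 CPM) in the Renilla library, a log2 ratio of 0.70 (0.52 to 0.88). Psmb8, which replaces the chymotrypsin-like subunit, had 228 CPM in the Jumonji library and 290 CPM in the Renilla library, a log2 ratio of -0.34 (-0.41 to -0.27). Psmb10, which replaces the trypsin-like subunit, had 71.0 CPM in the Jumonji library and 79.8 CPM in the Renilla library, a log2 ratio of -0.17 (-0.30 to -0.04). Psmb9 was thus the higher in the Jumonji library and Psmb8 and Psmb10 the lower, the last by little more than counting error. Summed, the 3 genes came to 348 CPM in the Jumonji library and 399 CPM in the Renilla library, a log2 ratio of -0.20 (-0.26 to -0.14), with Psmb8 making up most of these UMIs.

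The constitutive partners all lay below 0, and only Psmb6 by a clear margin. Psmb6 (chromosome 11, 70525367 to 70527858), the partner of Psmb9, had 236 CPM in the Jumonji library and 283 CPM in the Renilla library, a log2 ratio of -0.26 (-0.33 to -0.20). Psmb5 (chromosome 14, 54614119 to 54618022), the partner of Psmb8, had 430 CPM in the Jumonji library and 448 CPM in the Renilla library (log2 ratio -0.06). Psmb7 (chromosome 2, 38588036 to 38644087), the partner of Psmb10, had 205 CPM in the Jumonji library and 212 CPM in the Renilla library (log2 ratio -0.05, interval -0.12 to 0.03). Their sum gave a log2 ratio of -0.12 (-0.15 to -0.08).

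**Figure D1:**
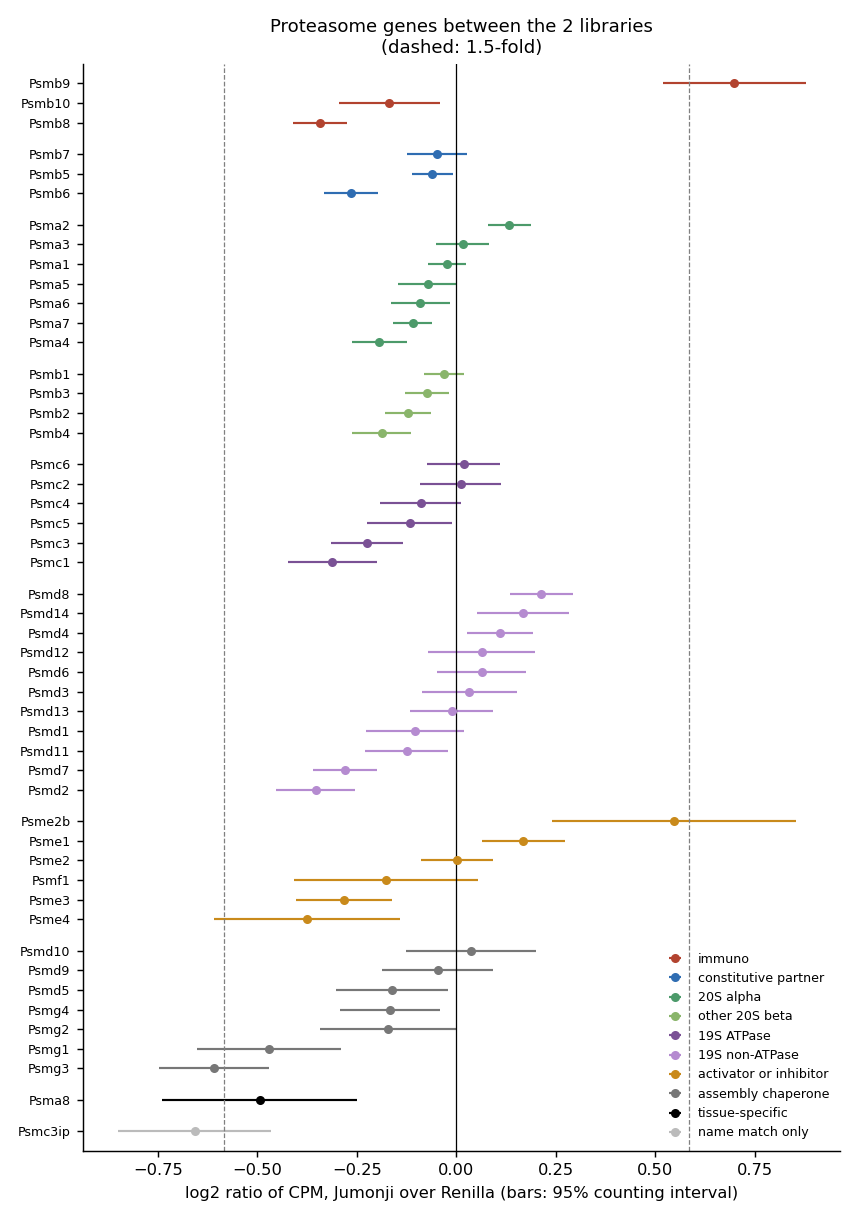
Log2 ratio of CPM, Jumonji over Renilla, for each of the 49 genes, grouped and coloured by role, with bars for the 95% counting interval and dashed lines at 1.5-fold. Most points lie near 0, Psmb9 at 0.70 is the one point past the right line, with Psme2b next at 0.55, and Psmg3 (-0.61) and Psmc3ip (-0.66) lie past the left line.

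The alpha subunits form the outer rings of the core, and their 7 genes ranged from 209 to 508 CPM in the Jumonji library and from 223 to 516 CPM in the Renilla library. Their log2 ratios ran from -0.19 for Psma4 and -0.11 for Psma7 to 0.02 for Psma3 and 0.13 for Psma2. The 4 other beta subunits, which hold no proteolytic site, ran from -0.19 for Psmb4 and -0.12 for Psmb2 to -0.07 for Psmb3 and -0.03 for Psmb1. The 14 standard core genes, the constitutive partners included, summed to 4578 CPM in the Jumonji library and 4802 CPM in the Renilla library, a log2 ratio of -0.07 (-0.08 to -0.05). The core sum therefore lay close to the median of all genes. Single core genes ran from -0.26 for Psmb6 to 0.13 for Psma2, and none reached 1.5-fold.

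Among the 19S ATPases, which unfold and translocate the substrate, Psmc1 (-0.31) and Psmc3 (-0.22) had the lowest log2 ratios and Psmc2 (0.01) and Psmc6 (0.02) the highest. The non-ATPases were more spread. Psmd2, a scaffold that binds ubiquitin shuttles, had 109 CPM in the Jumonji library and 139 CPM in the Renilla library (log2 ratio -0.35), and Psmd7, the partner of the deubiquitinase Psmd14, had a log2 ratio of -0.28. Psmd14 itself had 94.3 CPM in the Jumonji library and 84.0 CPM in the Renilla library (0.17, interval 0.05 to 0.28), and Psmd8, a lid subunit, had the highest ratio of the particle at 0.21 (0.14 to 0.29). The sum over the 17 genes of the particle was 2000 CPM in the Jumonji library and 2078 CPM in the Renilla library, a log2 ratio of -0.06, with 8 genes above 0 and 9 below.

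Of the activators, Psme1, one subunit of the interferon-inducible cap PA28, had 118 CPM in the Jumonji library and 105 CPM in the Renilla library (log2 ratio 0.17, interval 0.06 to 0.27). Psme2, the other subunit of that cap, had 149 CPM in both (0.00). Psme3, the nuclear form of the cap, had 77.1 CPM in the Jumonji library and 93.7 CPM in the Renilla library (-0.28), and Psme4, the nuclear activator PA200, had a log2 ratio of -0.37 (-0.61 to -0.14). Caps known from antigen processing thus lay at or above 0 and the nuclear ones below it. Psme2b had a log2 ratio of 0.55 (0.24 to 0.86) from 205 UMIs in the Jumonji library and 158 in the Renilla library, but it is a near copy of Psme2, and how reads of such copies were assigned is not stated.

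Among chaperones that build the alpha ring, Psmg3 and Psmg1 had low ratios. Psmg3 had 680 UMIs (53.1 CPM) in the Jumonji library and 1167 UMIs (80.9 CPM) in the Renilla library, a log2 ratio of -0.61 (-0.75 to -0.47). Psmg1 had 32.6 CPM in the Jumonji library and 45.1 CPM in the Renilla library (-0.47, interval -0.65 to -0.29). Psmg2 and Psmg4 stood at -0.17 each, and the chaperones of the ATPase ring Psmd9 and Psmd10 at -0.05 and 0.04. The second gene past 1.5-fold, Psmc3ip, had 27.2 CPM in the Jumonji library and 42.9 CPM in the Renilla library (-0.66), and Psma8 had 17.6 CPM in the Jumonji library and 24.8 CPM in the Renilla library (-0.49). Psma8 is a close paralogue of Psma7, so its reads are uncertain.

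The libraries differed in primary granule, neutrophil and monocyte marker RNA, so levels were compared along these. Maturation here means position on the following index and no more. An index of 17 neutrophil and monocyte genes over 5 primary granule genes, none a proteasome gene, ranked all kept cells, and the ranking was divided into 3 groups of equal size, called early, middle and late cells. The Jumonji library had 16 early, 192 middle and 367 late cells, and the Renilla library 378, 202 and 28. The early Jumonji cells and the late Renilla cells are therefore few, and 14.1% of cells lay within 0.25 of a boundary. The 5 progenitor markers rose along the index. They summed to 754, 941 and 1109 CPM in early, middle and late Jumonji cells. In the Renilla library the sums were 812, 933 and 1193 CPM. Late cells were also shallower and more often in G1: median UMIs were 32634, 26554 and 17978 in early, middle and late Jumonji cells and 24120, 23448 and 18240 in those of the Renilla library, and 37.6% of late against 12.5% of early Jumonji cells and 53.8% of late against 10.3% of early Renilla cells were called G1.

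Psmb9 was higher in later cells of both libraries, whereas the constitutive partners were lower. In the Jumonji library Psmb9 had 28.6, 41.8 and 54.9 CPM in early, middle and late cells, and in the Renilla library 27.4, 32.4 and 48.3 CPM. The log2 ratio of late over early cells was 0.94 (0.20 to 1.79) in the Jumonji library and 0.82 (0.16 to 1.41) in the Renilla library. Within the pooled groups Jumonji over Renilla was 0.06 (-0.80 to 0.81) in early, 0.37 (0.06 to 0.67) in middle and 0.18 (-0.40 to 0.83) in late cells. Each value was below the 0.70 over all cells, but the early and late intervals include 0.70. The early ratio rests on 15 Jumonji UMIs and the late ratio on 25 Renilla UMIs. Without the late cells of either library the pooled ratio of Psmb9 was 0.48 (0.24 to 0.71), below 1.5-fold, and no proteasome gene passed that size in either direction, where 5.75% of all genes were higher and 5.23% lower.

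**Figure D2:**
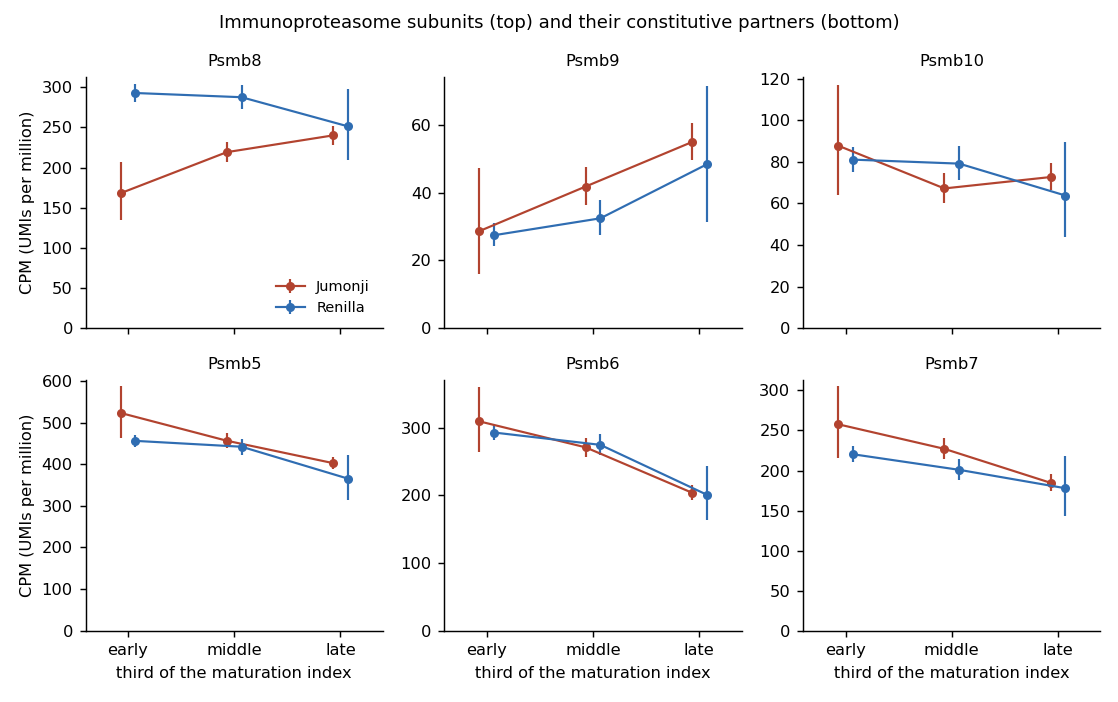
CPM of the immunoproteasome subunits (top) and the constitutive partner of each (bottom) in early, middle and late cells of the Jumonji library (red) and the Renilla library (blue), with bars for the exact Poisson 95% interval. Psmb9 climbs to 54.9 CPM in late Jumonji cells and 48.3 CPM in late Renilla cells, Psmb8 lies apart in early cells and meets in late ones, and Psmb5, Psmb6 and Psmb7 are lowest in late cells of both libraries.

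Psmb8 had 168, 219 and 240 CPM in early, middle and late Jumonji cells and 293, 288 and 251 CPM in those of the Renilla library. Late over early was 0.51 (0.21 to 0.84) in the Jumonji library and -0.22 (-0.49 to 0.03) in the Renilla library. The libraries were thus apart in early cells, at -0.80 (-1.12 to -0.50) for Jumonji over Renilla, and in middle cells, at -0.39 (-0.51 to -0.28), but not beyond counting error in late cells, at -0.07 (-0.32 to 0.20). The early Jumonji value rests on 88 UMIs from 16 cells. With cells ranked within their own library, late over early was 0.13 (-0.01 to 0.26) in the Jumonji library and 0.05 (-0.06 to 0.17) in the Renilla library, so the opposite directions were not seen. With that ranking, which evens out the cell numbers but does not match maturation, Psmb8 was lower in Jumonji at each position, by -0.33 in early, -0.40 in middle and -0.26 in late cells, and Psmb9 was higher, by 0.65, 0.73 and 0.85. Psmb10 showed no steady order in the Jumonji library, with 87.8, 67.2 and 72.7 CPM in early, middle and late cells. In the Renilla library the values fell in order, at 81.1, 79.2 and 63.8 CPM. Late over early was -0.27 (-0.71 to 0.20) in the Jumonji library and -0.35 (-0.90 to 0.16) in the Renilla library, with both intervals across 0.

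Among the constitutive partners, Psmb6 had 309, 271 and 204 CPM in early, middle and late Jumonji cells and 293, 275 and 201 CPM in those of the Renilla library. Psmb5 had 523, 456 and 403 CPM in the Jumonji library and 456, 442 and 365 CPM in the Renilla library, and Psmb7 had 258, 227 and 185 CPM in the Jumonji library and 220, 201 and 178 CPM in the Renilla library. The order was the same for all 3 genes in both libraries, and summed late over early ratios were -0.46 (-0.59 to -0.34) in the Jumonji library and -0.38 (-0.53 to -0.23) in the Renilla library. The immunoproteasome sum gave 0.37 (0.13 to 0.62) in the Jumonji library and -0.14 (-0.36 to 0.07) in the Renilla library.

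The share of catalytic UMIs that came from immunoproteasome subunits put these levels on one scale. Over all kept cells it was 28.5% (95% Clopper-Pearson interval 27.8 to 29.3) in the Jumonji library and 29.7% (29.1 to 30.4) in the Renilla library. In early, middle and late cells it was 20.7%, 25.6% and 31.7% in the Jumonji library and 29.3%, 30.3% and 32.8% in the Renilla library, so the gap was wider in early cells than over all cells. Ranked within each library, the shares were 25.1%, 29.1% and 35.2% in the Jumonji library and 28.0%, 30.9% and 30.4% in the Renilla library, with a narrower gap in early cells and the larger share in Jumonji among late cells. Within pairs, Psmb9 held 17.0% of the Psmb9 and Psmb6 UMIs in the Jumonji library and 9.5% in the Renilla library. Psmb8 held 34.7% of the Psmb8 and Psmb5 UMIs in the Jumonji library and 39.3% in the Renilla library. Psmb10 held 25.7% of the Psmb10 and Psmb7 UMIs in the Jumonji library and 27.3% in the Renilla library. Only the pair of Psmb9 had the larger immunoproteasome share in the Jumonji library, and there the share was 8.5%, 13.4% and 21.2% in early, middle and late Jumonji cells and 8.6%, 10.6% and 19.4% in those of the Renilla library. Ranked within each library it was 12.7%, 18.6% and 24.6% in the Jumonji library and 7.9%, 9.6% and 11.3% in the Renilla library.

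**Figure D3:**
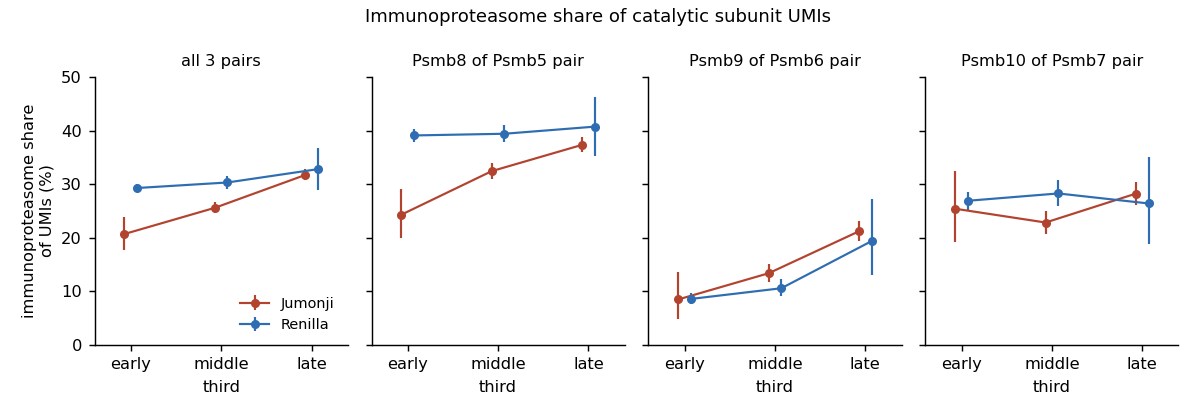
Share of catalytic UMIs from immunoproteasome subunits, in percent, for all pairs together and for each pair, in early, middle and late cells of the Jumonji library (red) and the Renilla library (blue), with exact 95% binomial intervals. The Psmb9 share is largest in late cells, at 21.2% in Jumonji and 19.4% in Renilla, and lies at 13.4% in middle Jumonji cells and 10.6% in middle Renilla cells, while the Psmb8 share differs most in early cells.

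The remainder of the complex was lower in late than in early cells of both libraries. The 20S core summed to 4233 CPM in late and 5366 CPM in early Jumonji cells, a log2 ratio of -0.34 (-0.40 to -0.29), and to 3965 CPM in late and 4923 CPM in early Renilla cells, a ratio of -0.31 (-0.38 to -0.25). The 19S particle gave -0.54 (-0.62 to -0.46) in the Jumonji library and -0.43 (-0.54 to -0.33) in the Renilla library, with all 17 of its genes below 0 in each. The median over the 49 genes was -0.48 in the Jumonji library, against -0.05 over all genes compared, and -0.40 in the Renilla library, against -0.23 over all genes compared. In the Jumonji library 16 of 49 genes (32.7%) were at least 1.5-fold lower in late cells, where 17.4% of all genes were, and 1 was higher, where 17.7% were. In the Renilla library 19 of 49 (38.8%) were lower, where 30.1% of all genes were, and 1 was higher, where 9.36% were. The gene that was higher was Psmb9 in both.

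Named by that size, the lower genes in the Jumonji library were Psmc1, Psmc3, Psmc5 and Psmc6 of the ATPases, Psmd3, Psmd6, Psmd7 and Psmd14 of the non-ATPases, Psme3, Psme4 and Psmf1 of the activators and inhibitor, Psmg2 and Psmg3 of the chaperones, and Psmb6, Psma8 and Psmc3ip. In the Renilla library they were Psmg1, Psmg3, Psmg4, Psmd5 and Psmd9 of the chaperones, Psmd1, Psmd2, Psmd3, Psmd6, Psmd7, Psmd11 and Psmd12 of the non-ATPases, Psma4, Psma6 and Psma7 of the alpha ring, and Psmc1, Psme3, Psma8 and Psmc3ip. The intervals of Psme4 and Psmf1 in the Jumonji library and of Psma8 in the Renilla library crossed 0. Psmg1 had 6 UMIs in late Renilla cells. Psmg3 had 45.2 CPM in late and 95.5 CPM in early Jumonji cells (-1.08, interval -1.51 to -0.62) and 27.1 CPM in late and 87.4 CPM in early Renilla cells (-1.69, interval -2.57 to -0.94). The late Renilla value rests on 14 UMIs. Psme3 had log2 ratios of -0.77 in the Jumonji library and -1.26 in the Renilla library, and the particle gene Psmd3 -0.92 in the Jumonji library and -0.61 in the Renilla library. By contrast Psma1 (-0.04 in Jumonji, 0.05 in Renilla) and Psmb1 (-0.04 in Jumonji, -0.06 in Renilla) differed little between late and early cells. Psme1 had 130 CPM in late and 91.6 CPM in early Jumonji cells (0.50, interval 0.08 to 0.95) and 122 CPM in late and 104 CPM in early Renilla cells (0.23, interval -0.16 to 0.60).

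With cells ranked within their own library the late over early ratios of the core, the particle and the constitutive partners had much the same size in the Jumonji library and were smaller in the Renilla library. In the Jumonji library the late over early log2 ratio was 0.23 (0.12 to 0.34) for the immunoproteasome sum, -0.46 for the constitutive partners, -0.36 for the 20S core and -0.50 for the 19S particle, and 14 genes (28.6%) were lower by 1.5-fold, where 17.5% of all genes were, and 1 (Psmb9) was higher, where 11.2% were. In the Renilla library it was 0.05 (-0.04 to 0.14) for the immunoproteasome sum, -0.12 for the constitutive partners, -0.13 for the 20S core and -0.24 for the 19S particle, and 0 genes passed 1.5-fold in either direction, where 2.16% of all genes were higher and 2.46% lower. Psmb9 stood at 0.63 (0.34 to 0.92) in the Jumonji library and 0.43 (0.09 to 0.78) in the Renilla library. In cells called S or G2/M alone, with pooled groups, the late over early ratio of the core was -0.28 in the Jumonji library and -0.13 in the Renilla library, so it was smaller than over all phases in both.

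**Figure D4:**
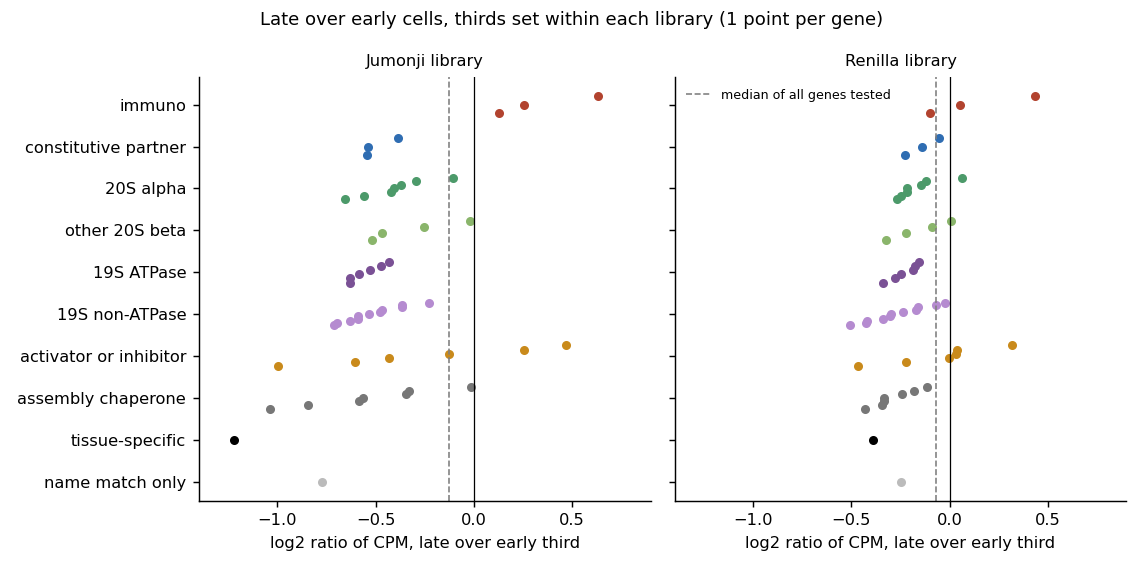
Log2 ratio of CPM in late over early cells, ranked within each library, with 1 point per gene, grouped by role, for the Jumonji library (left) and the Renilla library (right); the dashed line is the median of all genes compared. Most Jumonji points other than immunoproteasome genes lie left of the line at -0.13, and the Renilla points spread less around theirs at -0.07.

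The comparison of the libraries by position depended on how position was set. Cells ranked within their own library are not matched in maturation: the late genes of the index summed to 6456 CPM in late Jumonji cells and 1007 CPM in late Renilla cells so ranked, and to 808 CPM in early Jumonji cells and 261 CPM in early Renilla cells. In the pooled groups these sums were 3678 CPM in late Jumonji cells and 4290 CPM in late Renilla cells, and 456 CPM in early Jumonji cells and 314 CPM in early Renilla cells. Primary granule genes there summed to 929 CPM in late Jumonji cells and 2115 CPM in late Renilla cells. In early cells they summed to 5744 CPM in Jumonji and 6486 CPM in Renilla. The pooled late groups were therefore not fully matched either. With pooled groups the 20S core gave log2 ratios, Jumonji over Renilla, of 0.12, 0.09 and 0.09 in early, middle and late cells and the 19S particle 0.27, 0.17 and 0.16, above 0 where the pooled library ratios were below it. With cells ranked within each library the core gave 0.00, -0.10 and -0.23 and the particle 0.01, -0.10 and -0.24. The median over all genes compared also shifted, at 0.02, 0.01 and 0.15 with pooled groups and -0.03, -0.07 and -0.09 with cells ranked within each library. In pooled late cells the core thus lay below that median and the particle close to it. The immunoproteasome sum gave -0.50, -0.28 and 0.02 with pooled groups. The sign of the core and particle thus differed between the rankings in middle and late cells. In early cells the values were above 0 with pooled groups and next to 0 with cells ranked within each library.

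Between phases the libraries were compared in cells thinned to 10000 UMIs for the call. Psmb9 was higher in the Jumonji library in each phase, with a log2 ratio of 0.99 (0.51 to 1.49) in G1, 0.60 (0.28 to 0.92) in S and 0.59 (0.33 to 0.85) in G2/M cells. Psmb8 was lower in each, at -0.24, -0.57 and -0.22. The 19S particle was higher in S or G2/M cells than in G1 cells, by 0.30 (0.26 to 0.35) in the Jumonji library and 0.15 (0.10 to 0.21) in the Renilla library, and Psmc3ip had 32.9 CPM in S or G2/M against 9.89 CPM in G1 cells of the Jumonji library and 46.3 against 16.5 CPM in those of the Renilla library. The 20S core differed little by phase, at 0.09 in the Jumonji library and -0.05 in the Renilla library. For S or G2/M over G1 cells the median log2 ratio over all genes compared was 0.14 in both libraries. The particle value thus lay near that median in the Renilla library and above it in the Jumonji library, and the core values lay below it.

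Some genes that work with the immunoproteasome in antigen presentation were higher in the Jumonji library. Of 14 genes listed for MHC class I presentation, 12 had 100 UMIs, 4 were at least 1.5-fold higher and 0 lower, where 9.91% of all genes were higher and 7.89% lower, with a median log2 ratio of 0.56. H2-T23, a non-classical class I heavy chain, had 49.1 CPM in the Jumonji library and 14.7 CPM in the Renilla library (1.74), and B2m, the class I light chain, had 765 CPM in the Jumonji library and 357 CPM in the Renilla library (1.10). H2-D1 (1.07) and Erap1, the peptide trimming enzyme (0.59), also passed. Tap1, whose start lies beside that of Psmb9, had 11.9 CPM in the Jumonji library and 8.05 CPM in the Renilla library (0.57, interval 0.21 to 0.93), so both genes of the shared start had positive ratios. The lowest were Tapbpl (-0.52) and the chaperone Calr (-0.13).

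Of 16 genes listed as known regulators of proteasome genes, 12 had 100 UMIs, 4 were higher and 0 lower, beside the same 9.91% and 7.89% of all genes. Irf8, a myeloid interferon regulatory factor, had 98.3 CPM in the Jumonji library and 40.2 CPM in the Renilla library (1.29), and Irf2 had 34.8 CPM in the Jumonji library and 15.3 CPM in the Renilla library (1.18). Nfe2l2, which encodes NRF2, stood at 1.08 and Ngly1, which processes NRF1, at 0.69, whereas Nfe2l1, which encodes NRF1, was the lowest at -0.47 (-0.66 to -0.28) and Mafk next at -0.24. The interferon list had 6 of 15 genes with 100 UMIs, of which the GTPases Igtp (1.34, with 6.48 CPM in Jumonji and 2.57 CPM in Renilla) and Gbp7 (1.08) were higher, while Irf1 (-0.02, interval -0.51 to 0.46) and Bst2 (0.35) had the lowest ratios. The genes of these lists that passed 1.5-fold, and Psmb9, were higher in the library that also held more neutrophil and monocyte marker RNA, and the part of that difference in each gene was not tested.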

How the data were processed

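The authors deposited raw UMI counts per gene and cell barcode for 1 Jumonji and 1 Renilla library. Per the labels' protocols these came from the 10x Genomics 3′ kit with version 2 chemistry, and the submitters' processing notes name Cell Ranger 1.3.1 and the build mm10. The sources used here do not state the annotation release, the rule for calling cells or the strand setting.

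Kept barcodes had 500 genes or more and no more than 10% mitochondrial UMIs, and all 77 Jumonji and 43 Renilla exclusions came from the mitochondrial limit. Scrublet marked 4 Jumonji and 10 Renilla cells as doublets, which were kept. UMIs were summed per library or group of cells and scaled to CPM. Sums carry exact Poisson intervals, ratios exact conditional binomial intervals and shares Clopper-Pearson intervals, all at 95% and all for counting error only. No test was made.

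The maturation index of a cell was the log2 of late over primary granule UMIs per 10000, each plus 1, with group boundaries at -3.01 and -0.17. The late genes were S100a8, S100a9, Lcn2, Ngp, Ltf, Camp, Mmp8, Mmp9, Cd177, Lyz2, Ctss, Csf1r, Lgals3, Fcgr3, Itgam, Cybb and Wfdc17, and the primary granule genes Mpo, Elane, Ctsg, Prtn3 and Ms4a3. Phases were called with scanpy 1.11.5 after thinning to 10000 UMIs, which left out 55 Jumonji and 29 Renilla cells. edgeR 4.0.16 supplied TMM factors for an alternative only. On simulated Jumonji over Renilla counts for 9003 genes, 199 of 200 genes changed 2-fold passed the 1.5-fold size, as did 20 of 8803 unchanged ones, and 95.4% of intervals held the true ratio. These counts were drawn with counting error alone, as the intervals assume. They therefore check the calculation and give no error rate for differences between cultures or libraries.

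The genes and lists were chosen with earlier results of these data known. Psmb5 to Psmb10, genes at least 1.5-fold apart, and the 2 highest and 2 lowest ratios of each role and related list were named, except for a few genes that are not reported here, with further genes (such as Psme2, Psma1, Psmb1 and Tap1) named after their values were seen.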

Additional observations from a re-analysis of the deposited data

Results flagged for a closer look

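The immunoproteasome sum pointed in opposite directions along maturation in the libraries, with a log2 ratio of late over early cells of 0.37 in the Jumonji library and -0.14 in the Renilla library. Psmb8 did so as well, at 0.51 in the Jumonji library and -0.22 in the Renilla library. With cells ranked within their own library the signs of both did not differ: the immunoproteasome sum was 0.23 in the Jumonji library and 0.05 in the Renilla library, and Psmb8 was 0.13 (-0.01 to 0.26) in the Jumonji library and 0.05 (-0.06 to 0.17) in the Renilla library. The Renilla value kept its sign in 6 of 10 alternatives for the sum and in 7 of 10 for Psmb8. The difference between the libraries was not tested, and the Renilla intervals of both first-given values cross 0.

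The barcodes left out for their mitochondrial share also held proteasome RNA. In them the 20S core had a log2 ratio, Jumonji over Renilla, of 0.31 (0.18 to 0.44), and the 19S particle one of -0.78 (-0.94 to -0.62), from 1567 CPM in the Jumonji library and 2692 CPM in the Renilla library. Psmb9 had 24 UMIs in the left-out Jumonji barcodes and 2 in those of the Renilla library, a log2 ratio of 2.85 with a counting interval of 0.84 to 5.97.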

How the results depend on the processing

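No paired analysis was possible because each condition had 1 library, and no replicate could be left out. Values are log2 ratios unless said otherwise, in the order immunoproteasome, constitutive partners, 20S core and 19S particle where several are given, and only those that moved by more than their counting interval (counts, by over 1.5 times) are listed, with shares by position as ranges. Of the alternative values for the main results, 145 stayed within it and 92 moved. None of the summed or median ratios counted here reached 1.5-fold, so a sign change past that size could not occur. Some of them did change sign. Between the libraries the particle kept its sign in 6 of 8 alternatives and the core in 7 of 8. In late cells the immunoproteasome sum, Jumonji over Renilla, kept it in 4 of 9. Why values moved was not tested. The positive Psmb9 and negative Psmb8 library ratios kept their sign under all 8 alternatives, at 0.48 to 0.78 and -0.44 to -0.28. Immunoproteasome shares ran from 12.9% to 25.1% in early, 24.99% to 29.1% in middle and 31.1% to 35.2% in late Jumonji cells, and from 24.8% to 30.1%, 29.1% to 31.3% and 27.9% to 38.3% in those of the Renilla library, over 9 alternatives. The late over early ratios of the core, the particle and the constitutive partners stayed below 0 under all 10 alternatives in both libraries.

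For Jumonji over Renilla, median-of-ratios size factors gave -0.14, -0.0582, -0.0111 and 0.00214, with 2 genes higher and 1 lower. TMM factors gave -0.0658 (constitutive), -0.0188 (core) and -0.0055 (particle), again with 2 higher and 1 lower. A 2-fold size left 0 higher and 0 lower. Weighting cells equally gave -0.0888 (core), -0.10 (particle) and an immunoproteasome share of 29.8% in Jumonji. Thinned cells gave -0.0457 (core) and shares of 29.3% in Jumonji and 30.9% in Renilla, and the stricter cell filter -0.0861 (core). Without late cells, chosen after seeing the data, the ratios were -0.31, 0.0228, 0.0466 and 0.11, the median of the 49 genes 0.0353, the Jumonji share 25.1%, and 0 genes were higher and 0 lower.

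For late over early in the Jumonji library, G1 cells gave 0.94, -0.67, -0.51 and -0.89, with 2 early cells. S and G2/M cells gave -0.28 (core) and -0.41 (particle). Thinned cells gave -0.30 (constitutive) and -0.25 (core). The highest and lowest 25% gave -0.45 (particle). Late over middle cells, added after seeing the data, gave -0.27, -0.23 and -0.31, and the late list alone -0.22, -0.18 and -0.25, for constitutive partners, core and particle.

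For late over early in the Renilla library, the same 3 sums gave -0.74, -0.60 and -0.63 in G1 cells, -0.16, -0.13 and -0.20 in S and G2/M cells, -0.80, -0.52 and -1.003 between the highest and lowest 25%, and -0.12, -0.13 and -0.24 with cells ranked within the library. The immunoproteasome sum gave 0.0834 and the core -0.39 in thinned cells. An index without S100a8, S100a9 and Wfdc17 gave 0.18 (immunoproteasome) and -0.32 (particle). The late list alone gave -0.47 (immunoproteasome), and late over middle cells -0.23 (core) and -0.30 (particle). The immunoproteasome sum kept its sign in 6 of 10 alternatives here, against 10 of 10 in the Jumonji library.

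For Jumonji over Renilla by position, ranking within each library, which does not match maturation, gave -0.22 for the immunoproteasome in early cells, 0.000683, -0.10 and -0.23 for the core and 0.0123, -0.10 and -0.24 for the particle in early, middle and late cells. The 25% groups gave 0.0485, 0.0623 and 0.24 for the core, 0.0765 (early) and 0.63 (late) for the particle and 0.34 for the immunoproteasome in late cells. The late list alone gave 0.0226 (early) and -0.00418 (middle) for the core, 0.0384 (early) and 0.0741 (middle) for the particle and 0.33 for the immunoproteasome in late cells. G1 cells gave -1.001 (early) and -0.0846 (middle) for the immunoproteasome, 0.0612 (middle) and 0.19 (late) for the core and 0.40 (early) and 0.27 (middle) for the particle. S and G2/M cells gave -0.0329 (core) and 0.0279 (particle) in late cells. Thinned cells gave -0.47 (middle) and -0.22 (late) for the immunoproteasome and 0.23 (late) for the core. The index without S100a8, S100a9 and Wfdc17 gave -0.25 for the immunoproteasome in late cells.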

Other observations

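Genes that feed substrates to the proteasome mostly differed by less than 1.5-fold between the libraries. Of 17 ubiquitin receptors, shuttles and assembly factors with 100 UMIs, 0 were higher by 1.5-fold in Jumonji and 1 was lower, where 9.91% of all genes were higher and 7.89% lower, with a median log2 ratio of -0.03. The lower gene was Akirin2, known to bring proteasomes into the nucleus, with 8.12 CPM in the Jumonji library and 13.5 CPM in the Renilla library (-0.74, interval -1.09 to -0.39). The shuttle Rad23b stood next at -0.42 (-0.54 to -0.30). The highest were Shfm1, a small 19S subunit, with 1163 CPM in the Jumonji library and 902 CPM in the Renilla library (0.37), and the Vcp cofactor Ufd1l (0.15). Pomp, the maturation factor known to favour immunoproteasome assembly, had 336 CPM in the Jumonji library and 309 CPM in the Renilla library (0.12).

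The polyubiquitin gene Ubb stood at 0.32 (0.29 to 0.35). The ubiquitin activating enzyme gene Uba1 had 77.1 CPM in the Jumonji library and 93.8 CPM in the Renilla library (-0.28, interval -0.40 to -0.16). Neither reached 1.5-fold.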
